A study of Oreochromis niloticus and Pundamilia nyererei with 6 samples.

Results

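Isoform-rich loci are stretches of the genome at which the liver transcript set of a species lists 5 or more stranded transcripts whose spans, from start to end, overlap in a chain on the same sequence and strand. They were found in total RNA from the liver of 3 male Pundamilia nyererei (PN) and 3 male Oreochromis niloticus (ON, the Nile tilapia), with 1 library per fish. PN fish were tank-reared animals of generation 1 with an origin in Lake Victoria, and ON fish were tank-reared animals of about generation 93 with an origin in Manzala, Egypt. No fish received a treatment, and the labels give no age. Libraries were stranded and depleted of ribosomal RNA. Each species was assembled against its own genome, PunNye1.0 for PN and ASM185804v2 for ON, so species, rearing history, genome and annotation cannot be told apart. The rule took 99 of 20142 loci in PN (0.492%) and 191 of 23392 loci in ON (0.817%). These loci held 572 of 27832 stranded transcripts in PN (2.06%) and 1366 of 33084 in ON (4.13%).

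A gene can give several mature RNAs, called isoforms, when transcription starts or ends at different places or when introns are removed in different combinations. StringTie, the assembler used here, builds the isoforms of a locus from spliced reads and, as run here, from the reference annotation. It then divides the reads among them, so the level of an isoform is an estimate that depends on which other isoforms are listed. Reads that fall in a shared exon do not say which isoform they came from. The liver makes large amounts of a small set of secreted proteins, and transcripts of such genes can take a large share of a liver library.

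The transcripts carry no gene names, so loci are given by position and are numbered PN1 to PN14 and ON1 to ON16 among those described, and the liver label was not checked against marker genes. Levels are in FPKM (the number of sequenced fragments scaled to the length of the transcript and to the depth of the library), and the summed FPKM of a locus adds its isoforms. The top isoform of a locus in a library is the one with the highest FPKM there, and its share is its FPKM as a percent of the summed FPKM. Libraries held 1691745086 to 1942535594 aligned bases in PN and 1978219389 to 1997213175 in ON. At the median length of the transcripts in these loci, 3 reads correspond to 0.0464 FPKM in PN and 0.0515 FPKM in ON, which covers counting error only.

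ON had both more isoform-rich loci and larger ones. In PN 65 loci held exactly 5 transcripts and 34 held more, whereas in ON 81 held exactly 5 and 110 held more. Just outside the rule, 215 loci of PN and 301 of ON held 4 transcripts. Loci of 10 or more transcripts numbered 5 in PN and 22 in ON. The members lay on 77 of 1643 sequences with loci in PN, at most 4 on any of them, and on 37 of 657 in ON, at most 14. On the 22 ON sequences that hold at least 500 loci, their density ranged between 1.69 and 17.1 per 1000 loci. Both strands held members, with 49 loci on the plus and 50 on the minus strand in PN, and 91 and 100 in ON.

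**Figure D1:**
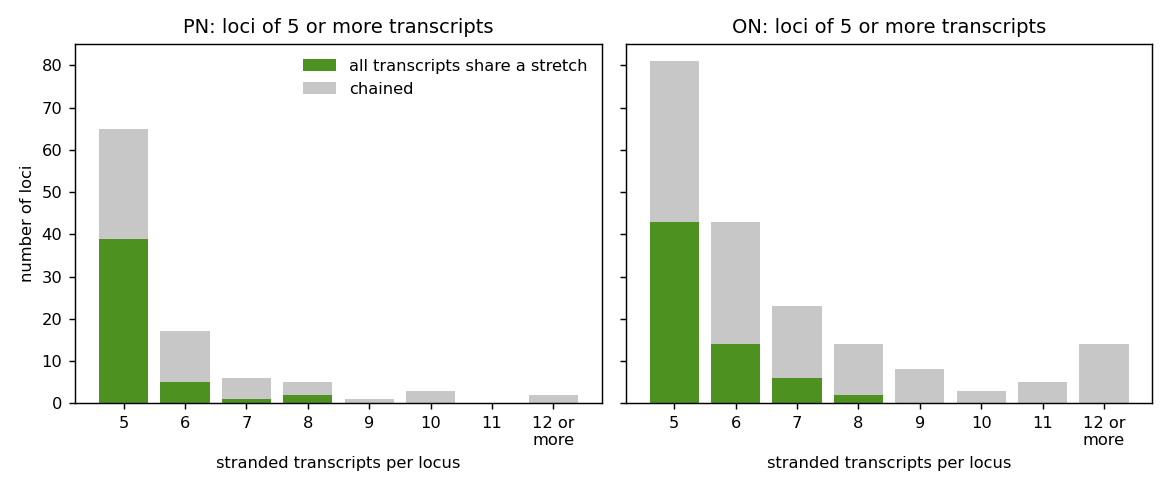
Number of isoform-rich loci (vertical axis) by the number of stranded transcripts per locus (horizontal axis), for PN and ON. Green bars count loci whose transcripts all overlap each other and grey bars, stacked on them, loci joined only as a chain; all 5 PN and all 22 ON loci of 10 or more transcripts are chained.

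Many of these loci were not sets of alternative forms over a common stretch. All transcripts overlapped each other in 47 of 99 PN loci (47.5%) and in 65 of 191 ON loci (34.0%). In loci of 2 to 4 transcripts that share was 96.0% in PN and 97.0% in ON. Most of those loci hold 2 transcripts, which overlap by the joining rule itself, so this contrast is largely set by the rule. At 4 transcripts the share was 68.8% in PN and 70.8% in ON, and at exactly 5 it was 60.0% and 53.1%. The other 52 PN and 126 ON loci were chains, in which at least 2 transcripts did not touch each other and were joined by transcripts lying across both. Chains held at least 3 mutually separate transcripts in 31 PN and 95 ON loci, with a maximum of 10 in PN and 21 in ON. Every locus of 10 or more transcripts was a chain, in PN 5 of 5 and in ON 22 of 22. Joining spans says only that transcripts overlap, and whether the members of a chain belong to 1 gene was not tested.

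Often a single long transcript held a chain together. With the widest transcript of each locus taken away, 35 PN and 98 ON loci fell apart into separate pieces, 24 PN and 67 ON loci into 3 or more. The joining transcript was not a trace in most cases. In the loci that fell apart and had a mean summed FPKM of at least 1, it carried a median of 15.1% of the summed FPKM in PN (35 loci) and 12.9% in ON (86 loci). It carried under 5% in 8 PN and 20 ON loci, and over 50% in 0 PN and 7 ON loci.

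ON chains were wider than PN chains. The median span of an isoform-rich locus was 39103 bases in PN and 68195 bases in ON, against 12247 in PN and 12518 in ON for loci of 2 to 4 transcripts. Spans above 100000 bases made up 15.2% of the members in PN (15 loci) and 37.2% in ON (71 loci). Loci whose transcripts all overlap each other were closer in size, with medians of 30256 bases in PN and 27775 in ON, and the chains reached medians of 45055 bases in PN and 96456 in ON. A class of transcripts of wide span and short sequence, over 100000 bases from start to end but under 1000 bases long in at most 3 exons, was picked out after the values were seen. It held 1 of the PN and 17 of the ON member transcripts (0.175% and 1.24%), and 3 PN and 7 ON transcripts of loci of 2 to 4 (0.0230% and 0.0457%). Transcripts were joined by span, so a wide transcript takes more neighbours into its locus. Wider spans in the isoform-rich class than in loci of 2 to 4 therefore follow in part from the rule. In ON such a transcript was the widest of its locus in 10 loci, and 9 of the 17 reached an FPKM of 10 in at least 1 fish.

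**Figure D2:**
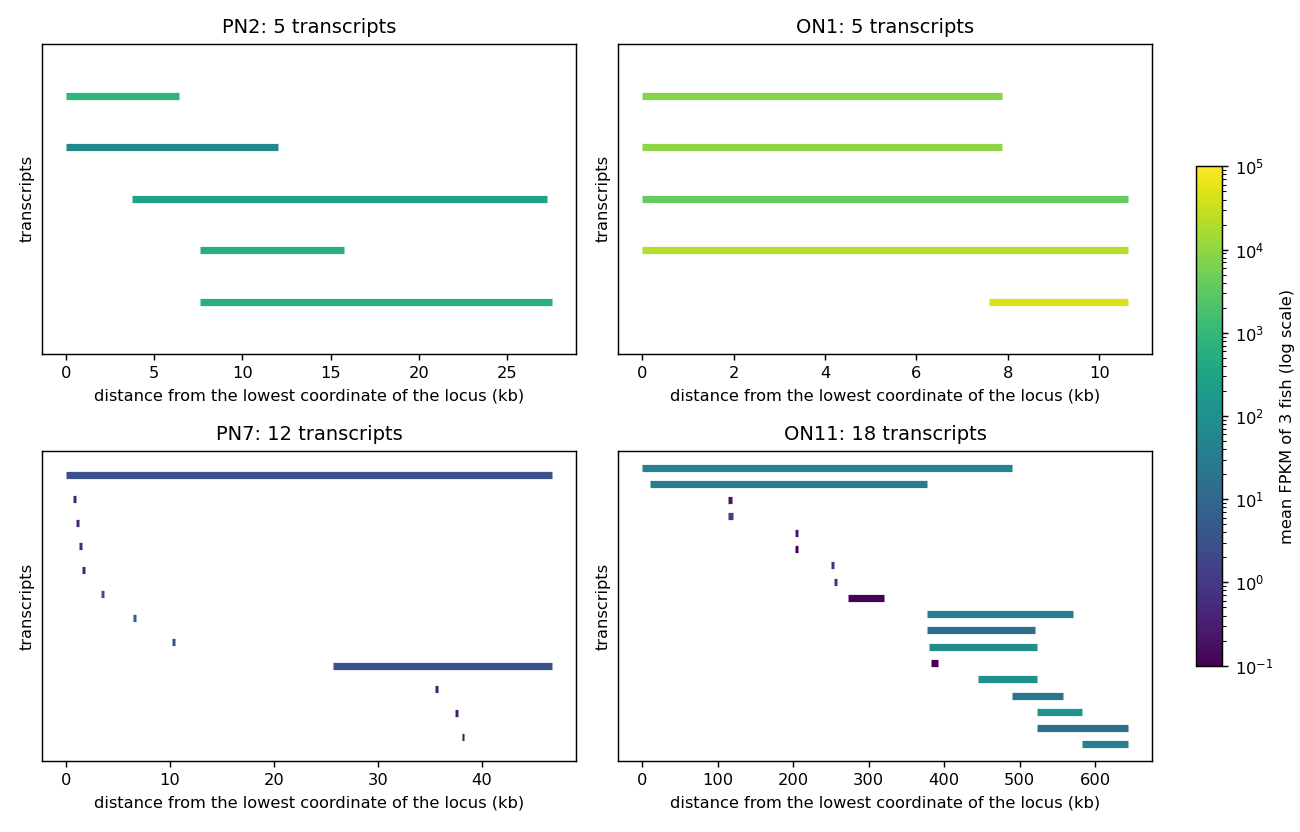
Spans of the transcripts of PN2 and PN7 (left) and ON1 and ON11 (right), each line a transcript from its lowest to its highest coordinate, by distance from the lowest coordinate of the locus in kb. Very short spans are drawn at a minimum width, and colour gives the mean FPKM of 3 fish on a log scale with levels under 0.1 drawn as 0.1; in ON1 all 5 transcripts overlap each other, whereas PN7 and ON11 are chains with 10 and 7 mutually separate transcripts.

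Isoform-rich loci had a higher summed FPKM in the liver than loci of 2 to 4 transcripts. The transcript number of a locus was itself set partly by these libraries and partly by the annotation. The isoform-rich loci had a median mean summed FPKM of 16.2 in PN and 7.96 in ON. For loci of 2 to 4 transcripts it was 4.51 in PN and 2.70 in ON. The log2 ratio of the 2 medians was 1.74 ± 0.08 in PN and 1.66 ± 0.16 in ON (SD, n = 3 each) and lay between 1.56 and 1.85 in the 6 libraries. Members spread widely around these medians, between 0.828 and 25579 FPKM in PN and between 0.209 and 89550 FPKM in ON. A mean of at least 100 FPKM was reached by 14 of 99 PN loci (14.1%) and 25 of 191 ON loci (13.1%), against 3.45% in PN and 2.43% in ON of loci of 2 to 4. The sum adds 5 or more transcripts, and in chains also transcripts that do not touch each other. In PN the library medians averaged 30.8 FPKM for chains, 8.31 for loci whose transcripts all overlap each other and 4.43 for loci of 2 to 4. In ON they averaged 8.83, 6.39 and 2.61 FPKM. Below a mean of 1 FPKM lay 3 PN and 25 ON loci. For the measures of isoform shares, 96 PN and 164 ON loci had a mean of at least 1 and a sum above 0 in every fish.

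The members took a smaller share of the summed FPKM in PN than in ON. They held 4.73%, 6.65% and 5.09% in the 3 PN libraries and 13.9%, 14.5% and 16.6% in the 3 ON libraries. The groups did not overlap, with means of 5.49% ± 1.02 in PN and 15.0% ± 1.4 in ON (SD, n = 3 each), and the difference was −9.52 percentage points (two-sided exact permutation test, p = 0.10, the smallest that 3 against 3 libraries allow). In these bulk samples, fewer cells of a type and less RNA per cell cannot be told apart. The share rested on 1 locus in each species. Without the most abundant locus, a setting chosen after seeing the data, the members held 1.71%, 2.32% and 1.66% in PN and 2.52%, 3.28% and 2.91% in ON. The difference was then −1.01 percentage points (exact permutation test, p = 0.10).

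Counted in aligned bases the order turned round. The members held 8.08% ± 0.91 of the bases in listed transcripts in PN and 6.44% ± 0.34 in ON (SD, n = 3 each), a difference of 1.64 percentage points (exact permutation test, p = 0.10). It was −0.30 without the most abundant locus of each species, −0.94 for loci of 6 or more transcripts and −3.72 for loci whose transcripts all overlap each other. FPKM divides by length, so a short transcript takes a larger share of FPKM than of bases.

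The most abundant PN locus, PN1, was a chain of 5 transcripts on NW_005187535.1 from 1388376 to 1504121, on the minus strand. Its summed FPKM was 21637, 30594 and 24506 in the 3 PN fish. The top isoform was mRNA27066 in each of them, a 25-exon transcript of 2793 bases, with 35.0%, 39.2% and 37.6% of the sum. Next came mRNA2236, which spans the whole locus of 115746 bases in 15 exons, with 27.4%, 26.5% and 26.3%. Close behind it was mRNA2233, a 2-exon transcript of only 255 bases that overlaps neither mRNA27066 nor the 43-exon mRNA2234, with 24.2%, 25.4% and 23.8%. The order of the 3 leading isoforms was the same in all 3 PN fish.

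ON1, the most abundant ON locus, was compact, with 5 transcripts of 297 to 587 bases and 2 to 4 exons on NC_031978.1 from 17991050 to 18001683, on the plus strand. Its summed FPKM was 89865, 79118 and 99667 in the 3 ON fish, and all its transcripts overlap each other. The top isoform mRNA2123 carried 53.1%, 51.3% and 51.0%, and mRNA2125, the longest, carried 23.6%, 24.2% and 24.0%. Both shares varied by under 2.2 percentage points between fish. The minor isoforms varied more, as mRNA2124 had 14654, 2973 and 11744 FPKM, and mRNA2121 had 1202, 8555 and 1378 FPKM. In fish 2, where mRNA2124 was low, mRNA2121 was high. These 2 transcripts start at the same base and end at different ones.

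The next loci by level kept a steady top isoform in some cases and not in others. PN4, on NW_005187468.1 from 2840870 to 2865268, had 2107, 1506 and 2216 FPKM, and its mRNA19058 kept 61.1%, 61.4% and 63.0%. PN5, on NW_005187488.1 from 1735754 to 1752275, had 1715, 1327 and 1854 FPKM, and its mRNA1354 led in each fish but with 47.7%, 60.4% and 36.4%. Its isoform mRNA1358 was at 67.7 FPKM in fish 2 and listed at 0 in fish 1 and 3. Among ON loci, ON2 was the steadiest of the described loci in its shares. It lies on NC_031979.1 from 4284735 to 4307953 and had 5516, 7843 and 6686 FPKM, so the sum differed 1.42-fold between fish. Its 3 leading isoforms, mRNA23761, mRNA23762 and mRNA23763, each 2 exons and 357 to 368 bases long, nevertheless held 39.6%, 39.5% and 39.5%, then 37.4%, 37.3% and 37.0%, then 22.5%, 22.8% and 23.1% across the fish. The 5 other isoforms of ON2 each had under 0.3% of the sum.

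ON4, on NC_031981.1 from 29926194 to 29986660, had 1699, 2822 and 1592 FPKM. Its widest transcript mRNA3164 was also its top isoform, with 61.1%, 67.2% and 69.7%. ON5, on the plus strand of the same sequence from 31528926 to 31738657, had 1277, 1309 and 1108 FPKM over 16 transcripts, of which 10 were mutually separate. Its top isoform was mRNA3178, the 27-exon transcript that spans the whole locus, in fish 1 and 3 with 34.1% and 38.1%, and mRNA27488 in fish 2 with 32.4% against 29.6%. All 3 sums of ON5 lay within 1.18-fold of each other.

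**Figure D3:**
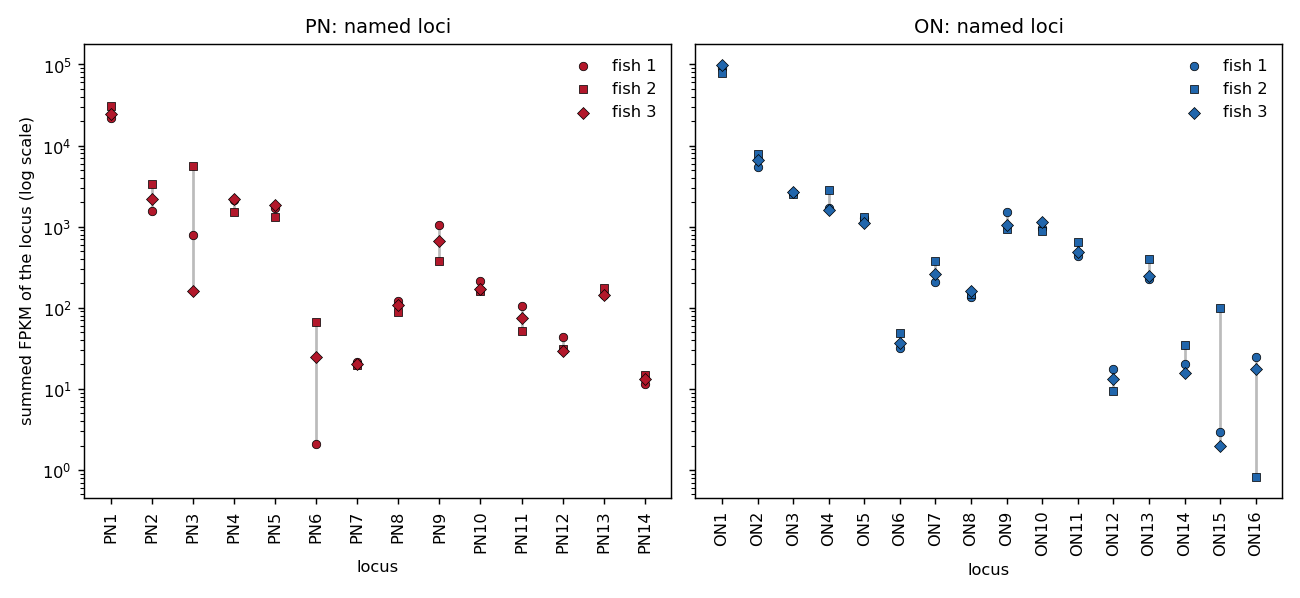
Summed FPKM (log scale, vertical axis) of the 14 described PN loci (left) and the 16 described ON loci (right), with a marker for each of 3 fish and a grey line joining the lowest and the highest. Most loci lie within a narrow range, and PN3, PN6, ON15 and ON16 spread over more than 30-fold.

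The PN loci with the most transcripts lay above the median level of the members, and they varied between fish to very different degrees. PN6, on NW_005187410.1 from 1811309 to 1922355, held 12 transcripts and had 2.06, 66.3 and 24.4 FPKM. Its top isoform differed in every fish, mRNA6100 with 31.5% in fish 1, mRNA6092 with 19.5% in fish 2 and mRNA6095 with 13.7% in fish 3. In fish 1 the leading value was 0.651 FPKM, where 3 reads correspond to as much as 0.283 FPKM. PN7, on NW_005187630.1 from 680347 to 727057, held an 11-exon transcript across the whole locus, an 8-exon transcript of 15444 bases and 10 single-exon transcripts of 71 bases. At 71 bases, 3 reads correspond to as much as 1.87 FPKM. Of the 10, mRNA33250, mRNA33251 and mRNA33252 had means of 2.73, 5.73 and 3.02 FPKM and the others lay below that floor in every fish. By fish, mRNA33252 was at 5.81, 1.85 and 1.40 FPKM, so it lay below the floor in fish 2 and 3. All 10 are shorter than a read of 75 bp and do not overlap each other. The sum of PN7 was 21.2, 19.5 and 20.2 FPKM, a spread of 1.08-fold, while its top isoform changed between fish among these 71-base transcripts. PN8, on NW_005187479.1 from 551312 to 590414, had 10 transcripts and 121, 89.5 and 108 FPKM, and its mRNA1116 led with 24.9%, 24.0% and 23.9%.

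The 36 transcripts of ON6 made it the locus with the most, on NC_031966.1 from 21360435 to 21647162, on the minus strand. Its sum was 32.3, 49.1 and 36.7 FPKM. Its lowest coordinate, 21360435, was shared by 26 of the 36 transcripts, whose other ends lay 15035 to 286728 bases away. The top isoform held 17.2%, 14.7% and 16.5% and was mRNA2326 in fish 1 and 3 and mRNA5190 in fish 2. The FPKM of ON6 was divided as if among 17.8 equal isoforms (the inverse Simpson index, a mean of 3 fish). ON7, on the same sequence and the plus strand from 22600420 to 23258550, held 31 transcripts and was the opposite case. It had 210, 379 and 262 FPKM, of which mRNA5266 alone took 83.9%, 85.1% and 81.1%, and the index was 1.42. ON8, on NC_031982.1 from 16535984 to 17712036, was the widest locus of both species at 1176053 bases, with 22 transcripts of which 19 were mutually separate. Its mRNA28516 led with 56.2%, 51.0% and 59.8%.

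The top isoform took less of a locus in the isoform-rich class than in loci of 2 to 4 transcripts. Its median share was 47.0%, 45.7% and 46.2% in the 3 PN libraries and 44.3%, 51.6% and 51.2% in the 3 ON libraries, against 81.1%, 79.9% and 79.8% in PN and 86.1%, 86.1% and 85.4% in ON for loci of 2 to 4. The difference was −35.4 percentage points on average and between −41.8 and −33.7 in the 6 libraries (two-sided exact sign-flip permutation test over 6 libraries, p = 0.031, the smallest that they allow). Part of it is arithmetic, since a larger number of isoforms allows a lower top share. The libraries of a species are also compared over the same loci. The p-value therefore cannot separate this arithmetic from any further difference. For members whose transcripts all overlap each other the difference was −28.4 percentage points. Just outside the class, at 4 transcripts, the share was already down to 57.2% ± 0.9 in PN and 63.0% ± 0.5 in ON (SD, n = 3 each). Within the class the share was lower at 8 or more transcripts than at 5, without an even course between them in PN. It was 54.8% ± 1.9 in PN and 54.6% ± 3.7 in ON at 5 transcripts, 42.7% ± 0.8 in PN and 50.4% ± 4.9 in ON at 6, 49.2% ± 5.0 in PN and 49.1% ± 4.5 in ON at 7, and 30.2% ± 1.3 in PN and 38.1% ± 2.8 in ON at 8 or more (SD, n = 3 each).

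**Figure D4:**
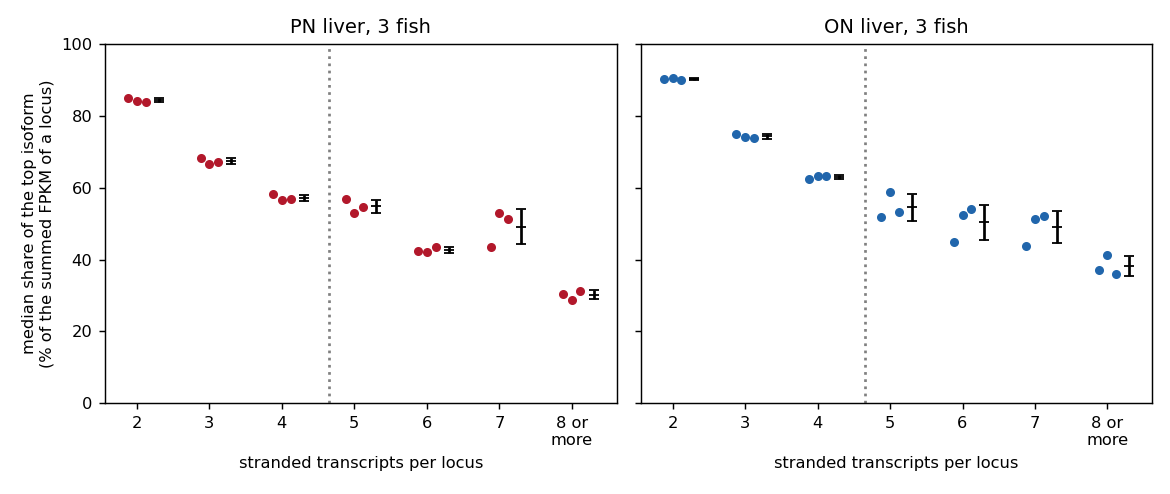
Median share of the top isoform (% of the summed FPKM of a locus) by number of stranded transcripts per locus, for loci with a mean summed FPKM of at least 1 and above 0 in each fish. Points are the 3 fish of PN (left) and ON (right), black bars the mean and SD, and isoform-rich loci lie right of the dotted line; at 5 transcripts the means are 54.8% in PN and 54.6% in ON.

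Between species the top share was not shown to differ. The means were 46.3% ± 0.65 in PN and 49.0% ± 4.1 in ON (SD, n = 3 each), a difference of −2.78 percentage points (exact permutation test, p = 0.40), and ON fish 1 lay below the 3 PN fish. For loci whose transcripts all overlap each other the direction turned, to 55.5% ± 2.1 in PN and 53.9% ± 7.9 in ON, a difference of 1.60 (exact permutation test, p = 0.80). The inverse Simpson index had medians of 2.90 ± 0.06 in PN and 2.77 ± 0.17 in ON for the isoform-rich loci, against 1.47 ± 0.02 in PN and 1.32 ± 0.01 in ON for loci of 2 to 4. A top share above 90% was found in 8, 6 and 7 of the 96 PN loci and in 10, 13 and 10 of the 164 ON loci. In loci of 2 to 4 it was found in 1825, 1800 and 1772 of 4924 PN and in 2197, 2202 and 2169 of 4886 ON loci. At 4 transcripts the counts were 20, 23 and 18 of 203 PN and 40, 52 and 41 of 265 ON loci.

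Isoforms listed at 0 were found in both species. The mean percent of isoforms above 0 per locus was 89.3% ± 0.54 in PN and 85.6% ± 1.9 in ON (SD, n = 3 each). For loci of 2 to 4 it was 91.1% ± 0.48 in PN and 89.1% ± 0.53 in ON. At 4 transcripts it was 90.3% ± 0.93 in PN and 85.3% ± 1.1 in ON, close to the members. The median percent of isoforms above 0 per locus was 100% in each PN fish and 100%, 88.9% and 86.0% in the ON fish (difference 8.36 percentage points, exact permutation test, p = 0.40). All isoforms of a locus were above 0 in 59.4%, 65.6% and 59.4% of PN loci and in 52.4%, 42.7% and 43.3% of ON loci. The groups did not overlap in this last measure, which was not tested. They did not overlap in loci of 2 to 4 either, at 79.4%, 81.1% and 81.4% in PN and 75.3%, 75.7% and 77.4% in ON. At 4 transcripts the means of this measure were 70.0% in PN and 58.4% in ON. Over the 3 fish together, 6 of 572 PN and 19 of 1366 ON member transcripts were listed at 0 throughout.

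The top isoform was the same in all 3 fish in 47 of 96 PN loci, or 49.0% (95% Wilson interval 39.2 to 58.8, counting error only), and in 74 of 164 ON loci, or 45.1% (37.7 to 52.8). Over all loci of 2 or more transcripts it was the same in 65.1% in PN and 66.4% in ON. The share of the isoform-rich loci was below that background in both species, which was not tested. The intervals take loci as independent, although all calls of a species come from the same 3 fish. They do not cover variation between fish. At 4 transcripts the share was already below the background, at 54.2% of 203 PN and 51.3% of 265 ON loci. In 39 PN and 74 ON loci 2 fish agreed and the third had another top isoform, and in 10 PN and 16 ON loci each fish had its own. The fish with the other top isoform was fish 1, 2 or 3 in 15, 14 and 10 of these PN loci and in 27, 30 and 17 of the ON loci.

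Many changes of the top isoform were large by its share in another fish, in the isoform-rich loci as in loci of 2 to 4. In loci of 2 to 4 it changed in 34.6% of 4924 PN and 32.9% of 4886 ON loci. There a top isoform had under 10% of the sum in another fish in 959 PN and 994 ON loci. It was listed at 0 in another fish in 656 PN and 677 ON of them. The top isoform changed in 49 PN and 90 ON isoform-rich loci. In 26 of these PN and 58 of these ON loci, the top isoform of a fish had under 10% of the sum in another. In 13 PN and 26 ON loci it was listed at 0 in another fish. The 2 isoforms of highest mean share lay under 10 percentage points apart in 30 of the 49 PN and 52 of the 90 ON loci. The median gap was 8.39 points in PN and 7.91 in ON. For loci of 2 to 4 with a changed top isoform it was wider, at 19.6 in PN and 23.0 in ON. A gap of means over fish does not give the size of a change. By level, the top isoform was the same in 15 of 34 PN and 31 of 82 ON loci at a mean summed FPKM of 1 to 10, in 21 of 48 PN and 30 of 57 ON loci at 10 to 100, and in 11 of 14 PN and 13 of 25 ON loci at 100 or more. Loci of 2 to 4 transcripts had 61.4%, 73.1% and 83.3% at these levels in PN, and 64.3%, 73.3% and 88.5% in ON. The isoform-rich loci lay below them at each level in both species, which was not tested.

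PN2, on NW_005187499.1 from 635226 to 662762, had 1570, 3373 and 2203 FPKM and an exchange between 2 long isoforms. The 33-exon mRNA1612 was at 588, 1201 and 54.1 FPKM, and the 39-exon mRNA1615 at 35.4, 81.0 and 731 FPKM. Fish 3 was thus low in the isoform that was abundant in fish 1 and 2, and high in the other. The shorter isoforms mRNA1611 and mRNA1613, which do not overlap each other, kept 31.9%, 35.5% and 36.8%, and 18.6%, 25.9% and 26.8%. The top isoform was mRNA1612 in fish 1 and 2, in fish 2 by only 35.6% to 35.5% over mRNA1611. In fish 3 it was mRNA1611, ahead of mRNA1615 with 33.2%. PN9, on NW_005189021.1 from 620 to 9618, had 1062, 374 and 673 FPKM. Its isoforms mRNA43826 (7 exons, 3850 bases) and mRNA43827 (5 exons, 2644 bases) share both ends. The larger one was at 825, 153 and 436 FPKM and the smaller at 209, 190 and 211 FPKM, so the lead of mRNA43827 in fish 2 came with a lower mRNA43826 and little change in its own level.

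PN10, on NW_005187537.1 from 997359 to 1070069, had 217, 163 and 169 FPKM, and its top isoforms do not overlap each other. The 16-exon mRNA2280 was at 77.0, 72.8 and 70.6 FPKM, whereas the 3-exon mRNA2277 was at 99.2, 37.6 and 51.2 FPKM and led in fish 1. The change of the top isoform at PN10 thus came with a change in the estimated level of mRNA2277 and little change in that of mRNA2280. An isoform that overlaps mRNA2277, mRNA2281, was at 3.42, 20.1 and 21.9 FPKM. The part of the division of reads between these isoforms was not tested. PN11, on NW_005187528.1 from 1888045 to 1907081, had 106, 51.9 and 75.5 FPKM, with mRNA2127 leading in fish 1 (28.0%) and mRNA2131 in fish 2 and 3 (38.9% and 32.6%). In fish 1 its isoform mRNA2128 stood at 23.6 FPKM, and it was listed at 0 in fish 2 and 3.

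ON9, on NC_031980.1 from 30073379 to 30381259, exchanged its top isoform almost completely. It had 1515, 942 and 1043 FPKM over 12 transcripts. Nearly all of it came from 2 transcripts of 2 exons, which are 294 and 290 bases long and span 307881 and 307877 bases. They share their lowest coordinate and lie 4 bases apart at their highest. ON9 is on the minus strand, so they end at the same base and start 4 bases apart. The longer, mRNA26024, was at 1328, 827 and 99.4 FPKM, and the shorter, mRNA26023, at 63.9, 11.0 and 824 FPKM. As shares this is 87.7%, 87.8% and 9.53% for mRNA26024 against 4.22%, 1.17% and 79.0% for mRNA26023. The remaining 10 isoforms lay inside this span, the highest being mRNA26026 with 52.1, 46.6 and 63.2 FPKM.

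ON3, on NC_031980.1 from 8607175 to 8613433, changed its top isoform by a narrow margin. It had 2566, 2519 and 2713 FPKM, and its single-exon mRNA25321 of 215 bases held 42.2%, 36.4% and 36.0% against 39.5%, 35.0% and 37.5% for the 7-exon mRNA25317. ON10, on NC_031970.1 from 14245665 to 14463532, had 971, 888 and 1145 FPKM over 6 transcripts of 1 to 3 exons with a median length of 246 bases. Its mRNA10616 led in fish 1 and 2 (30.8% and 33.9%) and mRNA10613 in fish 3 (32.3%). ON11, on NC_031968.1 from 43030448 to 43674404, had 438, 648 and 484 FPKM over 18 transcripts and a different top isoform in each fish. The 2-exon mRNA7906 was at 32.3, 225 and 34.0 FPKM, and mRNA7902, which ends at the same base, at 106, 20.1 and 129 FPKM. The third leader, mRNA7910, was at 121, 185 and 121 FPKM and held 25.0% to 28.5% of the sum in each fish.

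**Figure D5:**
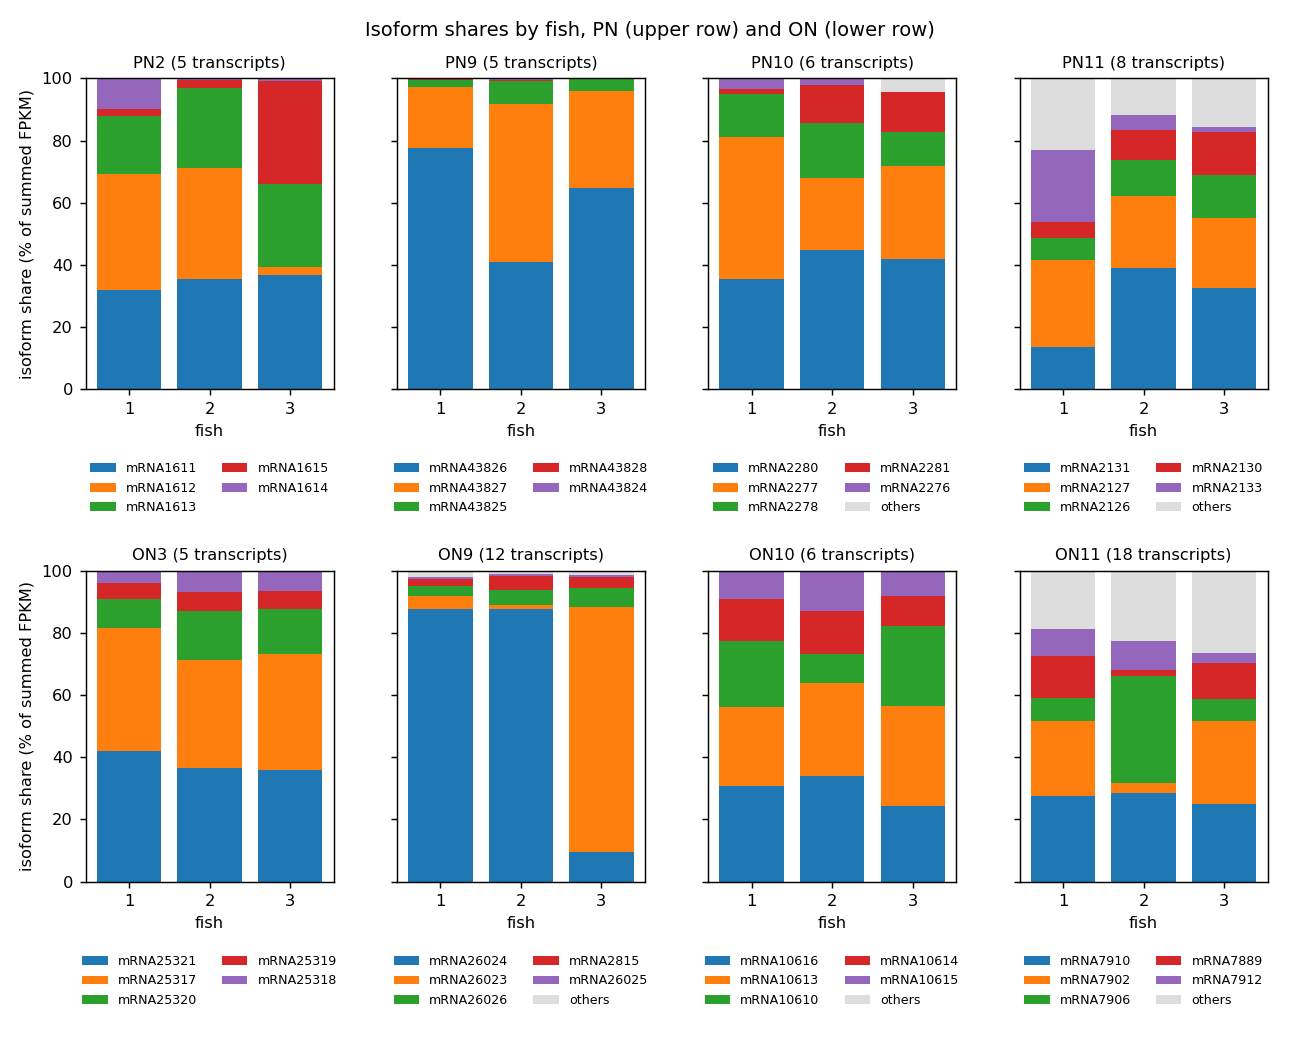
Isoform shares (% of the summed FPKM of the locus, vertical axis) in each of 3 fish for PN2, PN9, PN10 and PN11 (upper row) and ON3, ON9, ON10 and ON11 (lower row), loci whose top isoform was not the same in all fish. Colours mark the 5 isoforms with the highest mean share and grey the others; in ON9 mRNA26024 holds 87.7%, 87.8% and 9.53%.

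The ends of the range of top shares were also of different build. Among loci with a mean of at least 10 FPKM, the highest mean share in PN was that of PN12, on NW_005187773.1 from 125168 to 135077, with 43.3, 30.6 and 29.0 FPKM. Its single-exon mRNA38426 of 264 bases, inside the spans of 2 transcripts of 8 exons, held 94.3%, 85.1% and 91.1%. PN13, on NW_005187457.1 from 34714 to 64983, had 146, 174 and 145 FPKM, and its 8-exon mRNA16766 held 86.3%, 90.6% and 89.4%. In ON the highest at that level was ON12, on NC_031968.1 from 43387852 to 43550037, which lies on the opposite strand within the span of ON11. It had 17.4, 9.42 and 13.1 FPKM, and mRNA7899, 3 exons across the whole locus, held 92.7%, 99.0% and 90.5%. ON13, on NC_031972.1 from 12696314 to 12777190, had 223, 396 and 247 FPKM with 94.8%, 86.6% and 95.0% in mRNA13798.

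Low top shares came with many isoforms of like level. PN14, on NW_005187493.1 from 1489721 to 1515175, held 8 transcripts of 17 to 21 exons that start and end within 1 base of each other. Its sum was 11.4, 14.8 and 13.1 FPKM, and mRNA1488 led in each fish with 18.3%, 27.2% and 20.3%. An eighth form, mRNA1491, was listed at 0 in all 3 PN fish. ON14, on NC_031967.1 from 6581253 to 6857223, had 20.1, 34.5 and 15.5 FPKM over 11 transcripts, with a top share of 15.2%, 20.3% and 20.9% and another top isoform in every fish.

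The level of a whole locus varied less between fish than that of its top isoform. The SD between fish of the log2(summed FPKM + 1) had a median of 0.28 in PN and 0.26 in ON, and that of the top isoform by mean FPKM had a median of 0.36 in PN and 0.40 in ON. The top isoform had the larger SD in 67 of 96 PN and 110 of 164 ON loci (69.8% and 67.1%), against 62.9% in PN and 62.0% in ON of loci of 2 to 4, whose medians were 0.24 for the sum and 0.32 for the top isoform in both species. Loci of 2 to 4 thus showed the same direction. In loci whose transcripts all overlap each other the SD of the top isoform was the larger in 37 of 44 PN and 44 of 54 ON loci, with medians of 0.42 in PN and 0.38 in ON against 0.22 in PN and 0.19 in ON for the sum. StringTie divides the reads of a locus among its isoforms, and the part of this division in the spread of single isoforms was not tested. The sum differed more than 2-fold between the lowest and the highest fish in 23 of 96 PN (24.0%) and 35 of 164 ON loci (21.3%). This was not counted in loci of 2 to 4, so it cannot be called particular to the members. The SD of the sum was above 1 in 6 of 96 PN and 9 of 164 ON loci. In loci of 2 to 4 it was above 1 in 143 of 4924 PN and 153 of 4886 ON loci, and this contrast was not tested.

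A few loci differed strongly between fish as a whole. PN3, on NW_005187641.1 from 51167 to 55640, had 796, 5593 and 161 FPKM, with mRNA33836 leading in each fish (53.6%, 82.2% and 65.2%). It was thus highest in fish 2 by a factor of 34.7 over fish 3. PN6 was highest in fish 2 as well, by 32.2-fold over fish 1. ON15, on NC_031978.1 from 11339044 to 11363647, had 2.91, 98.8 and 1.95 FPKM, and its mRNA2023 was at 19.3 FPKM in fish 2 and listed at 0 in fish 1 and 3. ON16, on NC_031983.1 from 12315165 to 12432628, had 25.0, 0.813 and 17.4 FPKM, where fish 2 was the low one. Its mRNA29930 was at 18.4, 0.00229 and 11.5 FPKM. In fish 2 the lead passed to mRNA29936, with 86.2% of a sum below 1 FPKM, against 1.59% in fish 1 and 0.976% in fish 3.

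In most isoform-rich loci the top isoform was not the longest transcript, though a larger number of candidates makes this likely for any of them. By mean FPKM it was the longest of its locus in 26 of 96 PN (27.1%) and 27 of 164 ON loci (16.5%), and the shortest in 15 PN (15.6%) and 38 ON loci (23.2%). It had the most exons, ties included, in 29.2% of PN and 23.8% of ON loci, and it was a single-exon transcript in 7 PN and 18 ON loci. Loci of 2 to 4 transcripts have fewer candidates for each place, and there the top isoform was the longest in 57.5% in PN and 58.0% in ON. Whether these shares differ from what the number of candidates alone gives was not tested. Of the member transcripts that reached an FPKM of 1 in a fish, 57 of 437 in PN (13.0%) and 100 of 681 in ON (14.7%) were listed at 0 in another fish, against 13.3% in PN and 13.8% in ON in loci of 2 to 4. For those that reached 10 FPKM the counts were 9 of 124 in PN and 21 of 200 in ON. In loci of 2 to 4 they were 84 of 1888 in PN and 81 of 1678 in ON, a lower share in both species. This difference was not tested.

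Isoform-rich loci also enclosed other transcripts. A locus on the opposite strand overlapped 25 of 99 PN (25.3%) and 98 of 191 ON members (51.3%). Transcripts with no strand lay wholly inside 33 PN members, 117 of them, and inside 71 ON members, 241 of them. These enclosed transcripts were 0.645% of all transcripts with no strand in PN and 2.88% in ON, and they do not enter the sums above. No such overlaps were counted for loci with fewer transcripts, whose median span was smaller. Whether isoform-rich loci overlap other transcripts more often than their width alone gives was therefore not tested.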

How the data were processed

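Liver total RNA of 3 PN and 3 ON males, 1 library per fish, was analysed, with groups taken from the sample labels. Read pairs of 75 bp had been mapped by the authors with HISAT2 2.1.0. StringTie, guided by the reference annotation, had assembled them into 1 transcript set per species over its 3 fish. The number of transcripts per locus was thus set partly by the annotation and partly on these same libraries. The paper's methods also give a filter on unexpressed transcripts and a k-means merging of similar transcripts within loci, without saying whether these tables precede it. For each transcript the authors deposited FPKM and coverage per base but no counts, hence no count model. The rows carry no gene identifier, and no annotation of either build was used here.

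Transcripts were joined where spans shared at least 1 base. Shares used loci with a mean summed FPKM of at least 1 and above 0 in every fish. Aligned bases and the floor of 3 reads were computed from the constant ratio of coverage to FPKM in a library (relative tolerance 0.0001, above 50 FPKM), and intervals and floors cover counting error only. Libraries were compared with two-sided exact permutation tests. With 3 against 3 libraries p cannot go below 0.10. The labels number the fish of each species, and nothing pairs them across species. Loci described singly are, in each species, the 5 with the highest mean summed FPKM, the 3 with the most transcripts, the 3 most abundant others with a changing top isoform, and the 2 with the highest top share, the 2 with the lowest and the 2 with the largest SD between fish, these last groups at a mean of at least 10. Isoforms within them were picked after their values were seen. The members and lists were chosen with earlier results of these data known. Software versions were scipy 1.17.1, pandas 2.3.3, numpy 2.4.6 and matplotlib 3.10.9, under Python 3.11.15. Joining and top calls were checked on 600 simulated transcripts in 204 loci, with 0 in a wrong locus. Alternatives covered the number of transcripts, a common stretch, minimums, the pseudocount, bases in place of FPKM, the replicate block and leaving out each library.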

Additional observations from a re-analysis of the deposited data

Results flagged for a closer look

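The most abundant strandless transcripts inside the isoform-rich loci, which enter none of the sums above, had levels far above the limit that 3 reads allow. In PN, mRNA36578, on NW_005187710.1 from 394442 to 396993, was at 31.9, 31.0 and 38.5 FPKM, a mean of 33.8 ± 4.1 (SD, n = 3) against a floor of 0.0521. The locus around it, from 296662 to 494302, holds 7 stranded transcripts with a mean sum of 29.1 FPKM, so the enclosed transcript was at about the level of the whole locus. In ON, mRNA23760, on NC_031979.1 from 4288466 to 4288778 inside ON2, was at 2211, 2480 and 2119 FPKM, a mean of 2270 ± 188 (SD, n = 3) against a floor of 0.363. ON2 itself had a mean sum of 6682 FPKM. Whether these transcripts belong to the loci around them was not tested.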

How the results depend on the processing

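The number of loci follows the rule. With 6 or more transcripts it was 34 in PN and 110 in ON, and with a stretch common to all transcripts 47 in PN and 65 in ON. The share of aligned bases, PN minus ON, turned to −0.94 at 6 or more transcripts, to −3.72 with a common stretch, and to −0.30 without the most abundant locus of each species, a setting chosen after seeing the data. The median top share, PN minus ON, turned to 1.60 with a common stretch. The same top isoform was found in 59.4% of PN loci when ranked by bases in place of FPKM. With a common stretch the median SD between fish in ON was 0.19.

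Leaving out each library gave −35.8 to −34.0 points for the top share of isoform-rich loci minus that of loci of 2 to 4, where 5 libraries cannot give a p below 0.0625. With only 2 fish to compare, the same top isoform was found in 59.4% to 64.9% of PN loci and in 55.2% to 63.3% of ON loci, and the median SD was 0.193 to 0.295 in PN and 0.165 to 0.243 in ON, lowest in each species without fish 2. The differences PN minus ON kept their sign without any 1 library, at −10.1 to −8.70 for the share of FPKM, 1.17 to 2.08 for bases, −5.28 to −1.76 for the top share and 5.56 to 12.4 for isoforms above 0. Taking the replicate number as a block left the differences at −9.52, 1.64, −2.78 and 8.36, with exact p of 0.25, 0.25, 0.50 and 0.50, where 3 pairs cannot go below 0.25. No label says that a number marks a shared tank, batch or day.

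Of the values recomputed, 64 kept their direction and their side of the threshold of 0.05 or, where untested, stayed within the spread. Beyond that spread 16 untested values moved, 4 differences turned round, and 6 were weaker. Tests of PN against ON cannot go below 0.10, so they could not cross the threshold in any setting. Some of the 64 still changed in size. The share of FPKM went to −1.52 at 6 or more transcripts, −12.4 with a common stretch and −1.01 without the most abundant loci. The top share went to −7.26 at 6 or more transcripts and −1.02 by bases. Isoforms above 0 went to 0.20 with a common stretch and to 0 at a mean of at least 10 FPKM. That difference of 0 has no direction, though it was counted among the 64. Depth limits the minor isoforms. Where a listed transcript is short, a few reads give a high FPKM. In PN7 the leading 71-base transcripts were at 5.81, 5.67 and 7.22 FPKM in fish 1, 2 and 3, where 3 reads correspond to as much as 1.87. The part of low read numbers in its change of top isoform was not tested. Levels of isoforms that share exons are estimates of StringTie with no error of their own in the tables, so differences between fish within a locus include an unknown part from that estimate.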
